A study of Mus musculus with 8 samples.

Results

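The Notch ligands, receptors and targets described here are 10 mouse genes: the receptors *Notch1*, *Notch2* and *Notch3*, the ligands *Jag1*, *Jag2* and *Dll1*, and the target genes *Hes1*, *Hey1*, *Heyl* and *Nrarp*. They were chosen by symbol, as every probe of a bead array whose annotated gene is one of these, and they account for 11 probes (*Notch2* has 2) and for 10 of the 16593 genes that the array names. The RNA came from mSSC-YFP, a stromal cell line immortalised from E18.5 embryonic spleen, marked with a yellow fluorescent protein, of strain C57BL6/N and used at passage 2 to 6. In 4 samples the line had been cultured with splenic B cells of adult control mice, age-matched to the leukemic mice, and in 4 samples with splenic leukemic B cells of adult, highly leukemic Eμ-TCL1 mice, whose B cells carry a TCL1 transgene under the Eμ enhancer and which develop a model of chronic lymphocytic leukemia (CLL). All 8 samples thus hold the same stromal line after contact with B cells for 40 to 48 h, with 20 B cells for each stromal cell by the labels (more by the numbers seeded according to the methods), and none holds stroma without B cells. The B cells were removed by cell sorting before total RNA was extracted. One immortalised line stands for splenic stroma here, so the arrays carry no variation between stromal donors, and nothing in the labels tells whether each replicate had its own culture and its own donor of B cells. Of the tests used below, limma's p-values therefore measure only the spread between these samples, which may be technical. Those of the rank product come from permuting values among features within each array. Neither covers variation between stromal donors.

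Notch receptors are cell surface proteins that are cut when a ligand on a neighbouring cell pulls on them, and the freed intracellular part enters the nucleus, binds the DNA-binding protein RBPJ and switches on target genes. The best known targets are the Hes and Hey genes, which encode basic helix-loop-helix repressors, and *Nrarp*, whose product binds the intracellular part and limits the signal. In the spleen, Notch2 in B cells and its ligand Dll1 on stromal cells are needed to form marginal zone B cells, so stroma is known in this tissue mainly as the side that presents ligands. Stromal cells of mesenchymal origin also carry receptors of their own, Notch3 being typical of mural cells and fibroblasts. *Hes1* is not a target of Notch alone: growth factors and other signals also induce it quickly in many cells, and its protein represses its own gene.

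RefSeq's table for build GRCm38.p6 held the promoters of 7 of the 10 genes, with 8 starts since *Dll1* has a pair. *Hes1*, *Hey1* and *Heyl* had no entry, so *Nrarp* is the only target gene covered, and the other windows belong to receptors and ligands. The 250 bases before the start of *Nrarp*, *Notch1* and *Notch3* are shown because the levels of these genes are set against those of *Hes1* across arrays further on: *Nrarp* and *Notch1* were highest on the same 2 arrays, and *Notch3* was lowest on one of them. Each runs 5′ to 3′ towards the gene's start, and capitals mark matches on either strand to the N-box, CACNAG, a site bound by Hes repressors. They lie at chr2:25180508-25180757 on the plus strand for *Nrarp*, at chr2:26503823-26504072 on the minus strand for *Notch1* and at chr17:32166891-32167140 on the minus strand for *Notch3*.
Nrarp: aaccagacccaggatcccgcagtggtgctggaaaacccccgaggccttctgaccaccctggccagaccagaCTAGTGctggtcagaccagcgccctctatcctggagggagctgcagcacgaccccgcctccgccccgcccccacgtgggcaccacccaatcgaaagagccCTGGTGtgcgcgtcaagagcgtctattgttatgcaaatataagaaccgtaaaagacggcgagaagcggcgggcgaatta
Notch1: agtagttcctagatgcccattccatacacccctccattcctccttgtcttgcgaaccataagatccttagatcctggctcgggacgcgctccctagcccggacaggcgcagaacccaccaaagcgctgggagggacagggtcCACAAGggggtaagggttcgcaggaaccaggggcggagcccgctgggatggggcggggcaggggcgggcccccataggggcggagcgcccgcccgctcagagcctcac
Notch3: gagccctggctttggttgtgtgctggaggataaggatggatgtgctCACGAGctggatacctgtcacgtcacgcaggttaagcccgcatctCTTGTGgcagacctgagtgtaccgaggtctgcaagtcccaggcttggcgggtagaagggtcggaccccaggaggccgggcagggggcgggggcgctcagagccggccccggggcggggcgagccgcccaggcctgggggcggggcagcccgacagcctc
*Nrarp* had 2 N-box matches, which began 179 and 79 bases before its start, *Notch1* had 1 at 108 bases and *Notch3* had 2 at 204 and 159 bases. Of the 8 member promoters 4 held at least 1 N-box, against 36.7% of the 32851 promoters in the table. The core of the RBPJ site, TGGGAA on either strand, was in 0 of the 8 windows and in 21.6% of all of them. That count does not cover *Hes1*, *Hey1* and *Heyl*. With no core found, no match of one motif overlapped a match of the other. These matches describe letters only.

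Each array detected 13504 to 13938 of its 25697 probes, a probe counting as detected when the detection p-value deposited with its signal was below 0.05. The probe signals were background-corrected, normalized between arrays and put on the log2 scale, and a level below is this normalized value, which can be compared between arrays for one gene but not between genes. Features detected on at least 4 of the 8 arrays were tested, 9971 in all, with a rank product (a test on the ranks of the differences, read in each direction at a false positive share q below 0.05) and with limma (adjusted p below 0.05). The line had the marker genes of fibroblasts and splenic stroma: 12 of 13 with a probe were detected on all 8 arrays, while the spleen mesenchyme factor *Tlx1* was detected on none. Of 17 B cell markers 9 were detected on all arrays, *Ms4a1*, *Pax5* and *Ptprc* on none, and the mean level of the 9 tested ones was 6.17 to 6.51 on the control arrays, 6.73 to 7.22 on leukemic replicates 1 to 3 and 9.25 on leukemic replicate 4. That last array stood apart from the rest, with a correlation of 0.955 to 0.970 with the other arrays across features, against 0.984 to 0.995 among the other 7. Differences that it moved by over 1.5 times are also given without it.

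Of the 10 Notch genes, *Notch1*, *Notch3* and *Hes1* were detected on all 8 arrays and were tested. The other 7 did not reach 4 arrays. *Hey1* was detected on 3 arrays, *Nrarp* on 2 and *Jag1* on 1, and *Notch2*, *Jag2*, *Dll1* and *Heyl* on 0. The genes with detection on only some arrays were detected on leukemic replicate 4 in each case, and *Hey1* and *Nrarp* on control replicate 3 as well. Of the 3 genes tested, 0 passed the rank product as higher with leukemic B cells, where 37 features or 0.371% passed (6 without leukemic replicate 4 and 10 with the authors' normalized values), 0 passed as lower, where 0 features or 0% passed, and 0 passed limma, where again 0 features or 0% passed. The smallest limma adjusted p of any feature was 0.639, with 756 features at an unadjusted p under 0.05, and by the rank product 702 features were at an unadjusted p under 0.05 as higher and 698 as lower. The median difference of the 3 genes, leukemic minus control, was 0.26 on the log2 scale, against 0.0028 over all features, and it was 0.081 with the authors' normalized values and 0.072 without leukemic replicate 4. For probes of low signal the authors' values span less: *Jag1* ran from 7.62 to 7.79 there and from 4.62 to 5.88 here. Sizes from the authors' values are therefore not on a like scale for such genes.

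**Figure D1:**
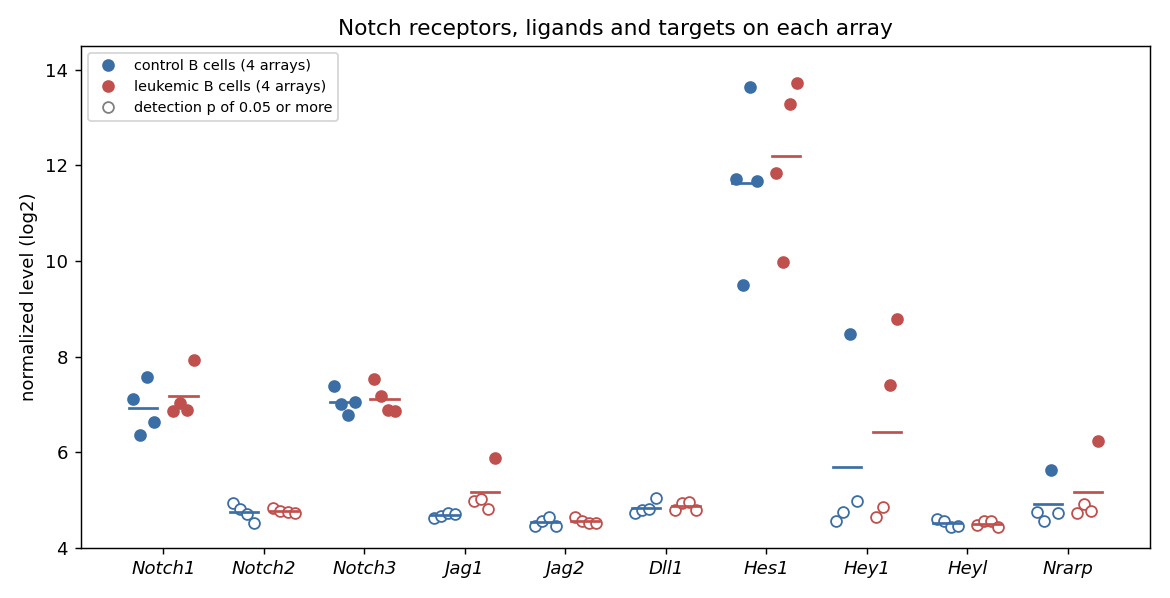
Normalized level (log2) of each Notch gene on the 4 control arrays (blue) and the 4 leukemic arrays (red), in replicate order within a group, with a line at each group's mean and open points where the probe was not detected. *Hes1* runs from 9.49 to 13.65 on the control arrays and from 9.98 to 13.72 on the leukemic arrays, *Hey1* is filled on 3 arrays only, and 4 genes have no filled point.

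*Notch1* encodes the receptor found on many cell types, lymphocytes included. Its probe signal on control replicates 1 to 4 was 139, 117, 236 and 131, and on leukemic replicates 1 to 4 it was 135, 189, 153 and 333, in the scanner's linear units. The normalized levels were 7.10, 6.36, 7.57 and 6.63 for control and 6.86, 7.03, 6.87 and 7.92 for leukemic stroma. The highest array was leukemic replicate 4 and the next was control replicate 3, and the groups overlapped. The means were 6.92 ± 0.53 and 7.17 ± 0.51 (SD, n = 4 each), a difference of 0.26 ± 0.30 on the log2 scale (SE), with limma's adjusted p at 0.790 and a rank product q of 0.822 for higher. Without leukemic replicate 4 the difference was 0.0076, without control replicate 3 it was 0.47, and with the authors' normalized values it was 0.081. Leukemic replicate 4 had the highest B cell marker level of all arrays, and the part of B cell RNA in its *Notch1* signal was not tested.

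*Notch3*, the receptor typical of mural cells and fibroblasts, was the steadiest of the 3 tested genes. Its normalized levels were 7.37, 7.003, 6.77 and 7.06 on control replicates 1 to 4 and 7.52, 7.18, 6.88 and 6.86 on leukemic replicates 1 to 4. The groups overlapped over nearly their whole range, and the highest and the next array were replicate 1 of either group. The difference was 0.059 ± 0.19 on the log2 scale (SE, n = 4 each), with limma's adjusted p at 0.932. It turned to -0.035 without control replicate 3 and to -0.079 without leukemic replicate 1, and it was 0.14 without leukemic replicate 4 and 0.021 with the authors' normalized values.

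The 2 probes of *Notch2*, the receptor that B cells need in the marginal zone, were detected on no array. The signals of the one with the higher mean lay between 49.5 and 65.9, and its detection p was between 0.0802 and 0.477. The other gave 51.4 to 58.8, so neither probe passed the detection limit in stroma from either culture. *Notch4*, a receptor best known from endothelial cells and no member of the chosen set, was detected on all arrays. Its levels were 5.81, 5.79, 5.99 and 6.06 on control replicates 1 to 4 and 6.32, 6.31, 6.28 and 6.18 on leukemic replicates 1 to 4, so every leukemic array was above every control array. The same held for 2.21% of all tested features, and the difference of 0.36 ± 0.14 on the log2 scale (SE, n = 4 each) had an adjusted p of 0.639 by limma and a rank product q of 0.630. Leaving out 1 array at a time gave 0.32 to 0.41, while the difference was 0.065 with the authors' normalized values and 0.23 with no background correction. Of the 11 markers of endothelial and mural cells, 7 were tested and 3 were detected on all arrays, and *Cdh5*, *Emcn*, *Myh11* and *Tie1* were detected on no array.

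Among the canonical ligands, which are the transmembrane proteins of the Jagged and Delta families, 0 of 5 with a probe could be tested. *Jag2*, with signals between 43.4 and 56.6, and *Dll1*, the ligand of splenic stroma in marginal zone B cell formation, with signals between 52.9 and 70.4, were not detected on any array. The lowest detection p of *Dll1* was 0.0589, just above the limit, and its highest was 0.169. *Dll3* and *Dll4*, which are not members of the set, were also detected on 0 arrays, with signals up to 61.3 and 61.4.

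*Jag1*, a ligand that fibroblasts and endothelium often carry, was detected on 1 array, and its values lay near the background. Its signals were 50.1, 55.6, 59.9 and 56.5 on control replicates 1 to 4 and 61.9, 73.3, 61.0 and 111.6 on leukemic replicates 1 to 4. All 4 leukemic arrays were above all 4 control arrays, also in normalized level, where the controls lay between 4.62 and 4.74 and the leukemic arrays at 4.98, 5.02, 4.81 and 5.88. In the fit without the detection filter, over 18312 features, 1.77% showed the same separation. In that fit the difference was 0.50 ± 0.19 on the log2 scale (SE, n = 4 each) with an unadjusted p of 0.0244 and an adjusted p of 0.793 by limma. Only leukemic replicate 4 was detected, with a detection p of 0.00501, and the difference was 0.25 without it and 0.070 with the authors' normalized values.

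*Hes1*, the Hes repressor and Notch target that many stromal cells express, varied far more between arrays of one group than between the groups. Its signals were 2593, 721, 12997 and 3246 on control replicates 1 to 4 and 3152, 1237, 10480 and 14690 on leukemic replicates 1 to 4. Control replicate 3 and leukemic replicates 3 and 4 were high, replicate 2 of either group was low, and the other 3 arrays lay between. In normalized level the controls were at 11.71, 9.49, 13.65 and 11.67 and the leukemic arrays at 11.84, 9.98, 13.28 and 13.72. The means were 11.63 ± 1.7 and 12.21 ± 1.68 (SD, n = 4 each), and the difference of 0.58 ± 0.90 on the log2 scale (SE) had an adjusted p of 0.851 by limma. The rank product q was 0.111 for higher and 0.535 for lower. Its unadjusted p was 0.00070 for higher and 0.0195 for lower, so *Hes1* ranked far out in both directions.

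The call on *Hes1* turned on single arrays. Without control replicate 3 the difference was 1.25 and the rank product called *Hes1* higher (q = 0.0200), and without leukemic replicate 2 it was 1.32 and was called as well (q = 0.0478). Without control replicate 2 it turned to -0.13, without leukemic replicate 3 it was 0.22 and without leukemic replicate 4 it was 0.072. The rank product does not weigh a gene's own spread between replicates, while limma does, and limma's adjusted p lay between 0.538 and 0.989 over these fits.

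The range of *Hes1* over the 8 arrays was 4.23 on the log2 scale, or 18.8-fold, and the controls alone spanned 17.9-fold. Of the 9971 features, 15 or 0.150% had a range at least as wide, where the median range was 0.65. Its SD within groups was 1.69, against a median of 0.21 over all features, and 6 features had one as large. *Notch1* had a range of 1.56, which 6.21% of features reached, and *Notch3* one of 0.75, which 39.4% reached. Without leukemic replicate 4 the range of *Hes1* was still 4.19, so that array does not set it.

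**Figure D2:**
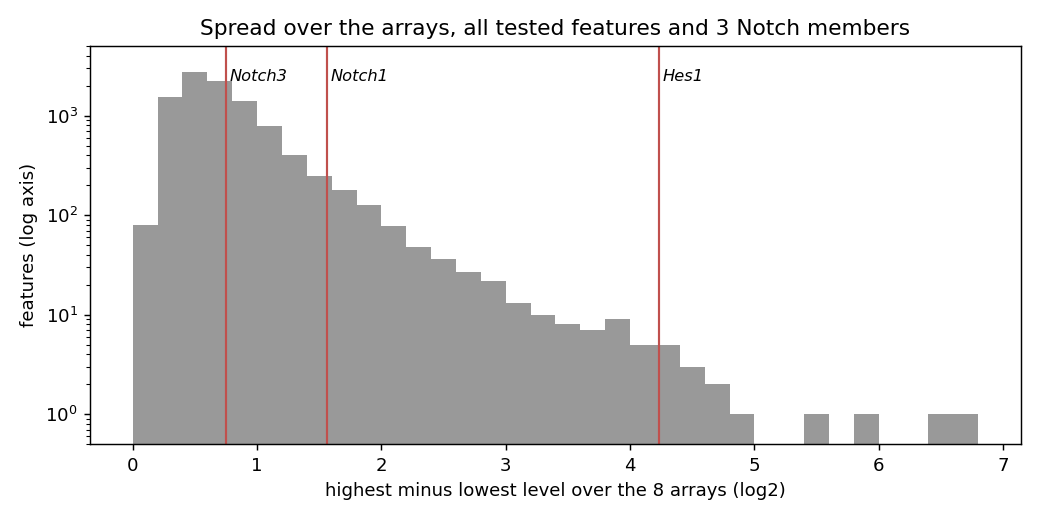
Number of tested features (log axis) by the difference between their highest and lowest level over the 8 arrays (log2), in bins of 0.2, with red lines at the 3 tested Notch genes. *Hes1* at 4.23 lies in the far right of the 9971 features, whose median was 0.65, and *Notch3* at 0.75 lies near that median.

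*Hey1*, a repressor of the same wider family, was detected only on the arrays with the highest *Hes1*. Its signals were 48.4, 59.1, 411.8 and 64.5 on control replicates 1 to 4 and 52.5, 67.5, 206.1 and 577.0 on leukemic replicates 1 to 4. It was detected on control replicate 3 and leukemic replicates 3 and 4, which are the 3 arrays with the highest *Hes1*, and on none of the other 5, whose lowest detection p was 0.0739. On the detected arrays its level was 8.48, 7.41 and 8.79, and on the others between 4.57 and 4.97. In the fit without the detection filter the difference between the cultures was 0.73 ± 1.03 on the log2 scale (SE, n = 4 each), with an adjusted p of 0.896 by limma, and it was -0.062 without leukemic replicate 4, 1.66 without control replicate 3 and 0.18 with the authors' normalized values.

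*Nrarp*, the target that limits Notch signalling, showed a narrower form of this pattern. Its signals were 53.6, 52.5, 87.9 and 57.3 on control replicates 1 to 4 and 55.5, 69.3, 59.5 and 132.0 on leukemic replicates 1 to 4. Control replicate 3 and leukemic replicate 4, the arrays with the highest *Hes1*, *Hey1* and *Notch1*, were the 2 on which it was detected, at levels of 5.63 and 6.23, and the other arrays lay between 4.57 and 4.91. The difference between the cultures was 0.24 ± 0.33 on the log2 scale (SE, n = 4 each), with an adjusted p of 0.890 by limma in the fit without the detection filter, and it was -0.11 without leukemic replicate 4 and 0.041 with the authors' normalized values. *Heyl*, the Hey family target known from vascular smooth muscle, was detected on 0 arrays, with signals between 44.9 and 54.8.

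The array order of *Hes1* was compared with that of every other tested feature over the 8 arrays. These correlations are descriptions: the 8 points share the same arrays and normalization, and the genes named here were chosen after their values were seen. Of 9970 features 41 had an r of 0.9 or more with *Hes1*, and 15 had one of -0.9 or less. The 8 named genes with the highest r were the stress-induced phosphatase subunit *Ppp1r15a* (r = 0.988), the inhibitor of DNA binding *Id3* (0.982), the AP-1 components *Fos* (0.979) and *Fosb* (0.974), *Id1* (0.971), the MAP kinase phosphatase *Dusp1* (0.971), *Itprip* (0.966) and the mRNA-destabilising *Zfp36* (0.957). Most of these are known as immediate early genes, which cells induce within minutes of a stimulus, and Id genes are known as targets of bone morphogenetic protein signals. The rank correlation with *Hes1* was between 0.905 and 0.976 for these 8 genes, r without leukemic replicate 4 was between 0.959 and 0.985, and r without the 2 arrays farthest from the median of *Hes1* was between 0.940 and 0.994.

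The genes followed *Hes1* in both cultures. *Id1* was at 9.98, 8.66, 12.86 and 10.97 on control replicates 1 to 4 and at 10.96, 9.60, 12.26 and 12.77 on leukemic replicates 1 to 4. *Fos* was at 12.72, 11.17, 13.78 and 13.04, and at 13.05, 11.55, 13.47 and 14.003. For both, control replicate 3 and leukemic replicates 3 and 4 were the highest 3 arrays and replicate 2 of either group the lowest, as for *Hes1*, and the cultures overlapped (limma's adjusted p was 0.781 for *Id1* and 0.865 for *Fos*). *Notch1* had an r of 0.72 with *Hes1* (rho 0.74) and *Notch3* one of -0.44 (rho -0.52), so the receptors did not share its order as closely. *Notch3* was lowest on leukemic replicates 3 and 4 and control replicate 3, the arrays with the highest *Hes1*.

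**Figure D3:**
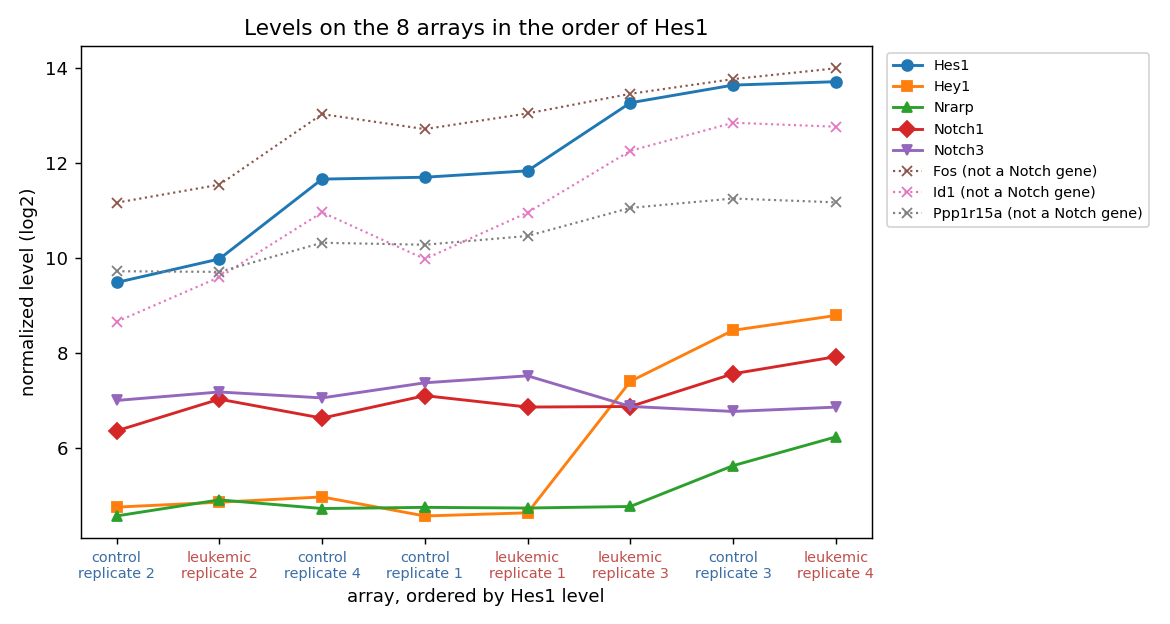
Normalized level (log2) of 5 Notch genes (solid lines) and of *Fos*, *Id1* and *Ppp1r15a* (dotted lines) on the 8 arrays, ordered along the x axis by the level of *Hes1*, with control arrays named in blue and leukemic arrays in red. *Hey1* steps up on the last 3 arrays, *Nrarp* and *Notch1* are highest on the last 2, *Notch3* is lowest on the last 3, and arrays of both cultures lie at either end.

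The B cell, cell division, myeloid, and endothelial and mural means moved with some of these arrays but not with all. Of 8 T and NK cell markers with a probe, 5 were detected on no array and 1 was tested. That 1 gene was highest on the 3 arrays with the highest *Hes1*. It was at 7.70 on control replicate 3, 8.51 on leukemic replicate 3 and 7.64 on leukemic replicate 4, against 6.88 to 7.39 on the others. Leukemic replicate 4 had the highest mean level of B cell markers (9.25) and the lowest of 15 cell division genes (9.14, against 9.82 to 10.66 on the others). It was also highest in the mean of 3 myeloid markers (9.72, against 7.77 to 8.82) and lowest in that of 7 endothelial and mural markers (5.64, against 6.29 to 6.70). In contrast, control replicate 3, with nearly the same *Hes1*, had a B cell mean of 6.42 and a cell division mean of 10.38, within the range of the other control arrays. Leukemic replicate 3, the next in *Hes1*, had a B cell mean of 6.94. Of the 9 tested B cell markers, 6 passed the rank product as higher with leukemic B cells, where 37 of all features or 0.371% passed. Without leukemic replicate 4, 4 of these markers passed, where 6 features passed in all. Of the 15 cell division genes all were lower in the leukemic mean and 0 passed the rank product. Of the 3 tested myeloid markers 2 passed as higher, the lysozyme genes *Lyz1* and *Lyz2*, and 0 without leukemic replicate 4. The myeloid markers *Adgre1*, *Itgam* and *Tyrobp* were detected on no array. The part of other cells' RNA in the *Hes1* and *Hey1* values was not tested, and in bulk RNA of sorted cells fewer cells with a transcript and less of it per cell cannot be told apart.

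A list of 79 genes of the Notch pathway, sorted by role and including the 10, was read in the same way. Of these, 68 had a probe, 15 of the 68 were detected on no array, and 46 were tested. In the leukemic mean 26 were higher and 20 lower, 0 passed the rank product in either direction, where 0.371% of features passed as higher (6 features in place of 37 without leukemic replicate 4), and 0 passed limma, with 6 of the 46 at an unadjusted p under 0.05, against 756 of all 9971 features. The median difference was 0.030 on the log2 scale, against 0.0028 over all features. All leukemic arrays were above all control arrays for 3 of the 46 (6.52%), which were *Notch4*, *Mfap5* and *Neurl1a*, against 2.21% of all tested features.

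Of the atypical ligands and ligand-like proteins 6 were tested, 3 of them higher and 3 lower in the leukemic mean. *Mfap5*, a microfibril protein that can bind Notch receptors, was at 5.78, 5.48, 5.75 and 6.10 on control replicates 1 to 4 and at 6.65, 6.42, 6.15 and 6.51 on leukemic replicates 1 to 4. The groups did not overlap, and the difference of 0.65 ± 0.18 on the log2 scale (SE, n = 4 each) had an unadjusted p of 0.00381, an adjusted p of 0.639 by limma and a rank product q of 0.111. It was 0.12 with the authors' normalized values and 0.42 with no background correction. *Dner*, a ligand-like protein of neurons, gave -0.42 ± 0.16 and was detected on 6 arrays, and it gave -0.053 with the authors' normalized values. *Dlk1*, a Delta-like protein of embryonic mesenchyme that lacks the receptor-binding domain of canonical ligands, was at 13.34, 13.87, 13.41 and 13.75 on control and 13.48, 13.75, 13.07 and 11.60 on leukemic replicates. Its low value on leukemic replicate 4 carried the difference of -0.62 ± 0.38, which was -0.16 without that array.

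Of the genes for ligand endocytosis and receptor glycosylation 6 were tested, and *Lfng* and *Mfng*, the Fringe enzymes that tune which ligand a receptor answers, were detected on no array. The E3 ubiquitin ligase *Neurl1a* was at 8.002, 7.71, 7.94 and 7.998 on control and 8.23, 8.22, 8.18 and 8.75 on leukemic replicates, a difference of 0.43 ± 0.16 on the log2 scale (SE, n = 4 each) with an adjusted p of 0.639 by limma. *Rfng*, the Fringe enzyme that was detected, gave -0.28 ± 0.19, and the glucosyltransferase *Poglut1* -0.079 ± 0.084, which median scaling brought to -8.5e-05. Of the 7 tested genes for receptor cleavage 6 were higher in the leukemic mean. *Adam10* and *Aph1c*, listed for the same role, were detected on no array. The gamma-secretase subunit *Aph1a* differed by 0.44 ± 0.20, and the groups overlapped, and the sheddase *Adam17* by 0.19 ± 0.16, or 0.060 without leukemic replicate 4. *Furin*, which cuts the receptor on its way to the surface, gave -0.079 ± 0.081, or -0.0019 with median scaling.

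In the nuclear complex and its corepressors 9 genes were tested, 5 of them lower in the leukemic mean. The histone deacetylase *Hdac1* gave -0.31 ± 0.15, the acetyltransferase *Kat2b* -0.44 ± 0.25 and the coactivator *Maml3* -0.28 ± 0.19 on the log2 scale (SE, n = 4 each). Without leukemic replicate 4, *Kat2b* gave -0.67 and *Maml3* -0.17. The probe of *Rbpj*, through which all Notch receptors act in the nucleus, was detected on 3 arrays with a highest signal of 81.1 and was not tested. Of 8 tested inhibitors and turnover genes the ligase *Dtx3* gave -0.26 ± 0.11, *Nedd4* 0.22 ± 0.12 and *Dtx4* 0.30 ± 0.21, which was 0.11 without leukemic replicate 4. Of the genes listed as targets 7 were tested. Beside *Hes1*, the platelet-derived growth factor receptor *Pdgfrb* gave 0.19 ± 0.15, the cyclin *Ccnd1* -0.21 ± 0.21 and the Hes family gene *Hes6* 0.081 ± 0.14. Without leukemic replicate 4, *Pdgfrb* gave 0.12 and *Hes6* 0.14, and *Hes6* gave 0.17 with median scaling or with the mean of its probes. *Ccnd1* was at 13.32 on leukemic replicate 4, between 14.17 and 14.48 on all other arrays, and its difference was 0.047 without that array. *Hes2*, *Hes3*, *Hes5* and *Hey2* were detected on no array, so of the Hes and Hey genes only *Hes1* and *Hes6* could be tested.

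**Figure D4:**
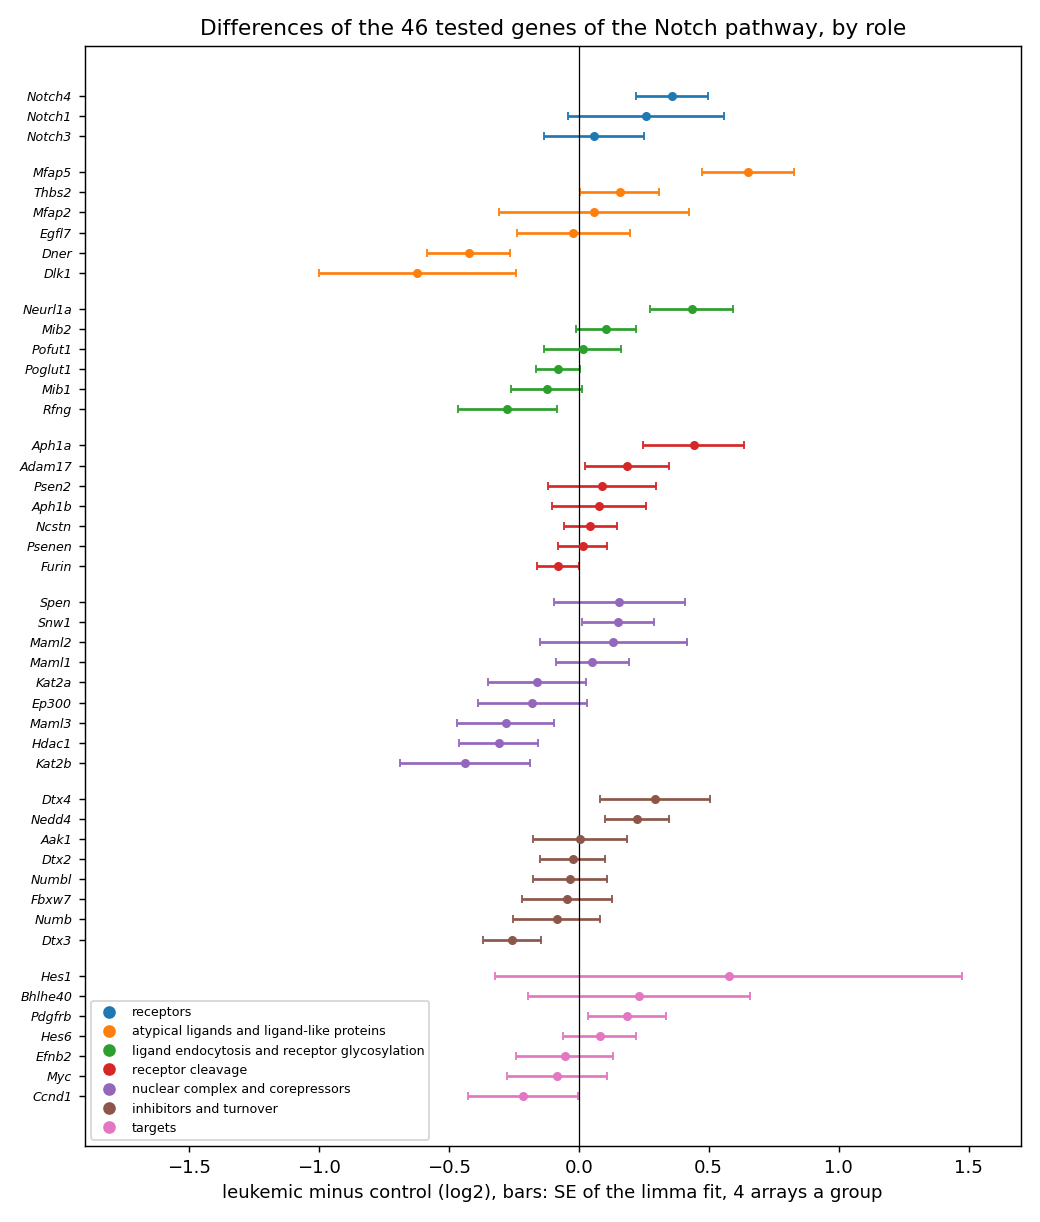
Difference between the cultures, leukemic minus control, on the log2 scale for the 46 tested genes of the Notch pathway, grouped by role, with bars for limma's standard error (4 arrays a group). *Mfap5* at 0.65 and *Dlk1* at -0.62 are the ends of the range, and *Hes1* at 0.58 has the widest bar.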

How the data were processed

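Total RNA of stroma sorted after co-culture was hybridised to Illumina mouse bead arrays, 4 per group. The deposited signal file holds, for 25697 probes, a linear intensity that was not normalized between arrays, and the deposited detection p-value of each probe and array, given by the scanner software against its negative controls. The authors also deposited a log2 matrix normalized with lumi, whose background and transformation settings are not given in the sources used here; it served as an alternative.

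Signals were background-corrected with neqc of limma 3.58.1 in R 4.3.3 (offset 16, quantile normalization, log2). Probes with a detection p below 0.05 on at least 4 of 8 arrays were kept (13732), with 1 probe per symbol, that with the highest mean. Of all probes, 23978 had 1 symbol and 1719 were unnamed here; each unnamed one was kept as 1 feature, for 9971 features in all. The 2 probes of *Notch2* were both described. Stroma cultured with leukemic B cells was compared with stroma cultured with control B cells by a rank product, the test the methods name, in an own implementation (16 array pairs, 100 permutations within arrays, q below 0.05 in each direction), and by limma with a trend (2-sided, Benjamini-Hochberg adjusted over all features), which gave differences and standard errors. Both were tested on simulated data that gave every feature the same spread. Those data do not cover genes of wide spread such as *Hes1*, nor an array that stands apart. Genes under the detection limit were fitted once without the filter. The number of arrays limits the precision. The members and lists were chosen with earlier results of these data known. All members were named with all their probes, and from each role of the pathway list up to 3 further tested genes with the smallest limma p; any other gene was named after its values were seen. Alternatives were the authors' values, no background correction, median scaling, no filter, detection on all arrays, every probe or the mean of a gene's probes, the replicate number as a block, limma without a trend, and each array left out. Promoters came from RefSeq, GRCm38.p6.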

Additional observations from a re-analysis of the deposited data

Results flagged for a closer look

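Among 74 groups of 4 arrays of one gene, 8 had an array far from the other 3, and chance alone gives about 1 in 20 such groups. Among the Notch genes, *Notch1* stood at 7.92 on leukemic replicate 4, with the nearest leukemic array at 7.03. *Hey1* stood at 8.48 on control replicate 3, with the nearest control array at 4.97. *Nrarp* stood apart in both groups, at 5.63 on control replicate 3 (nearest 4.75) and at 6.23 on leukemic replicate 4 (nearest 4.91). Of the other genes of the pathway, leukemic replicate 4 was high in *Neurl1a* (8.75, nearest 8.23) and low in *Ccnd1* (13.32, nearest 14.29), and control replicate 1 was low in *Dner* (5.31, nearest 5.63) and high in *Dtx4* (8.75, nearest 8.28).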

How the results depend on the processing

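Limma called 0 features, 0 members and 0 pathway genes under every alternative in which calls were counted, and 0 members passed as lower. Calls were not counted with the mean of a gene's probes. Features higher by rank product, 37 in the reported fit, were 10 with the authors' values, 24 with no background correction, 56 with no filter, and 6 to 41 with an array left out (6 without leukemic replicate 4). Features lower, 0 in the reported fit, were 4 with the authors' values, 8 with no filter, 17 with the replicate block, and 0 to 16 with an array left out. Members and pathway genes passing the rank product were 0 to 1 with an array left out, the 1 being *Hes1*. In every other setting in which calls were counted, 0 passed. The median difference of the tested members ranged from 0.044 to 0.47 with an array left out and was 0.081 with the authors' values. Of 421 single differences under alternatives, 7 changed sign, all with an array left out, and the cause was not tested. With an array left out, *Hes1* ranged from -0.13 (without control replicate 2) to 1.32, *Notch3* from -0.079 (without leukemic replicate 1, and -0.035 without control replicate 3) to 0.17, *Hes6* from -0.028 (without leukemic replicate 1) to 0.15, and *Ccnd1* from -0.34 to 0.047, *Hey1* from -0.062 to 1.66 and *Nrarp* from -0.11 to 0.48, these 3 turning without leukemic replicate 4. A shift of more than 1.5 times was seen in 14 of 25 differences when leukemic replicate 4 was left out, and in 14 with the authors' values, these all towards 0: *Mfap5* to 0.12, *Jag1* 0.070, *Notch1* 0.081, *Notch3* 0.021, *Notch4* 0.065, *Hey1* 0.18, *Nrarp* 0.041, *Dner* -0.053, *Kat2b* -0.097, *Maml3* -0.050, *Rfng* -0.10, *Aph1a* 0.24, *Neurl1a* 0.22 and *Dtx4* 0.18. The authors' values span less for probes of low signal, so these sizes are not on a like scale. Limma's adjusted p with the authors' values was 0.651 for *Mfap5* and for *Notch4*, against 0.639 in the reported fit, and *Hes1* differed by 0.57. With no background correction 4 moved by over 1.5 times, to 0.42 for *Mfap5*, 0.23 for *Notch4*, -0.24 for *Dner* and -0.18 for *Maml3*. Median scaling moved 3, *Furin* to -0.0019, *Poglut1* to -8.5e-05 and *Hes6* to 0.17, and the mean of a gene's probes moved 1, *Hes6*, to 0.17. As checks chosen after seeing the data, the marker calls were repeated without leukemic replicate 4 (B cells 4 in place of 6, myeloid 0 in place of 2), and the range of *Hes1* was 3.73 without control replicate 2 and 4.10 to 4.24 otherwise. Deviations of same-numbered arrays correlated with an r of 0.25, 0.30, 0.19 and 0.03, against -0.28 to 0.19 for arrays of different number. The labels say nothing of a shared day or culture, so the numbers were not taken as pairs. Whether equal numbers mark a shared culture was not tested. With the replicate block, *Hes1* differed by 0.58 with an adjusted p of 0.552, and no member passed. Genes near the background, *Jag1* and *Nrarp* among them, are limited by signal over background.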

Other observations

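Beyond the genes described so far, 3 more pathway genes with a probe under the detection limit of 4 arrays were detected on a single array, and were named after their values were seen. *Dtx1*, an inhibitor that B cells express, and *Hes7*, a Hes repressor known from the segmentation clock, were detected on leukemic replicate 4 alone, with signals of 123.2 and 90.5. *Cr2*, the complement receptor of mature B cells and follicular dendritic cells, was detected on leukemic replicate 2 alone, with a signal of 79.5. Leukemic replicate 4 also had the highest B cell marker level, and the part of B cell RNA in these values was not tested.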
